A study of Mus musculus with 4 samples.

Results

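The 36 genes described here encode the NRF2 pathway and the antioxidant enzymes of the cell, and they were taken from a list of names, with no threshold on a measured value. All 36 were found among the 21864 protein-coding genes of the mouse annotation. The question was how often each carried a peak of RNA polymerase II (Pol II) within 1500 bp of a transcription start site (TSS), called a promoter peak, or in the rest of the gene, called a gene body peak. By role, 6 were regulators, 4 handled haem and iron, 8 belonged to glutathione metabolism, 11 to the thioredoxin and peroxiredoxin system and 4 to the removal of superoxide and hydrogen peroxide, and 3 supplied NADPH or reduced quinones.

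In resting cells, KEAP1 holds the transcription factor NRF2 (Nfe2l2) in the cytoplasm and directs it to degradation. Oxidants and electrophiles modify KEAP1, NRF2 enters the nucleus, pairs with a small MAF protein such as MAFG or MAFK and binds antioxidant response elements (AREs), whereas BACH1 pairs with the same proteins and represses a subset of those genes. The products make glutathione, reduce thioredoxin, degrade haem, store iron and supply NADPH. Brain endothelial cells (ECs) line the blood–brain barrier and are exposed to oxidants from blood and tissue alike.

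Pol II ChIP-seq was carried out on 200000 flow-sorted brain ECs per library. The libraries are named WT Cre 1 and 2, from old mice of the genotype CdH5CRE (20 to 23 mo), and EC-K4KO 1 and 2, from young mice of the genotype ECK4KO (4 to 6 mo), after the replicate numbers of the labels. EC-K4KO mice carried CDH5-CreERT2, an endothelial Cre that tamoxifen activates, together with floxed Klf4. WT Cre mice carried the Cre alone, both received tamoxifen at 8 wk of age on the C57BL/6J background, and the labels do not tell whether a library came from 1 animal or from a pool. Age and genotype changed together, so their parts in any difference cannot be told apart, and the p-values measure the spread between libraries, which the methods call biological replicates without giving the animals behind each.

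Depth ran from 22705175 to 65734178 fragments per library. WT Cre 1 and 2 yielded 78851 and 39674 peaks, EC-K4KO 1 yielded 35638 and EC-K4KO 2 yielded 235591. EC-K4KO 2, the library with the fewest fragments, had the longest list and stood apart. Of 12 endothelial marker genes, 4, 6, 0 and 6 had a promoter peak (values in this order, WT Cre 1, WT Cre 2, EC-K4KO 1 and EC-K4KO 2, here and below), against 6, 3, 3 and 17 of 25 markers of microglia, astrocytes, neurons, oligodendrocytes and mural cells. Promoter peaks were found at 25.6%, 24.5%, 10.7% and 67.5% of all protein-coding genes. The endothelial markers thus stood at 0 of 12 in EC-K4KO 1, against 10.7%, and at 6 of 12 in EC-K4KO 2, against 67.5%. Body peaks were found at 10, 6, 7 and 9 of the 11 endothelial markers with a body (90.9%, 54.5%, 63.6% and 81.8%), against 76.4%, 58.8%, 49.6% and 93.6% of genes of the same length decile, above it in the replicate 1 libraries and below it in the replicate 2 libraries. In EC-K4KO 1 body peaks were also found at 3 of 5 neuron, 2 of 5 microglia, 2 of 5 astrocyte, 0 of 4 oligodendrocyte and 1 of 6 mural markers, against length-matched shares of 56.1%, 32.3%, 40.2%, 31.2% and 26.9%. For the same markers EC-K4KO 2 had 5, 4, 5, 4 and 4, against 94.9%, 72.8%, 90.7%, 83.9% and 77.0%. WT Cre 1 had 4, 3, 4, 2 and 2, against 79.7%, 53.2%, 67.6%, 53.5% and 53.1%. WT Cre 2 had 3, 1, 2, 2 and 2, against 64.1%, 39.2%, 49.6%, 38.2% and 35.6%. Among 1134 olfactory receptor genes, which ECs do not use, 7.14%, 2.73%, 5.82% and 24.9% had a promoter peak. A peak was listed at the Klf4 promoter in each EC-K4KO list and not in the WT Cre lists, and 1, 0, 0 and 2 peaks lay in its body, so EC-K4KO 2 had the most Pol II peaks over the targeted gene. Which of these peaks lie in the floxed part was not determined, and the Pol II lists therefore do not check the genotype. Results for the antioxidant genes are therefore given library by library, and the part that other cell types, background or signal strength played in them was not tested.

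The sequence that NRF2 recognises was looked for in the reference first. The 80 annotated TSS of the 36 genes were searched on both strands, from 250 bp before to 50 bp after each TSS, for the letters TGACNNNGC, the core of the ARE. A match stood in 13 of 80 windows (16.2%), against 12.9% of the 41451 windows of all protein-coding genes, and these 13 windows, some of which overlap, belonged to 9 genes and held 12 distinct matches. The 6 matches whose flanks touch no annotated exon are shown on GRCm38 with 20 bases on either side and the core in capitals, because NRF2 and BACH1, each with a small MAF partner, bind this core. The core in Mafg and Prdx1, TGACTCAGC, also holds the AP-1 letters TGANTCA.
Txnrd1 (chr10:82859094-82859142, minus strand, core at -65 bp from the nearest TSS): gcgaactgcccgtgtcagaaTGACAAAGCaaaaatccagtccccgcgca
Mafg (chr11:120630190-120630238, plus strand, core at -70 bp): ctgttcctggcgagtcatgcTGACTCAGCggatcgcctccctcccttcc
Sod1 (chr16:90220686-90220734, minus strand, core at -48 bp): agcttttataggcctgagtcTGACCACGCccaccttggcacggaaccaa
Gclm (chr3:122245403-122245451, minus strand, core at -134 bp): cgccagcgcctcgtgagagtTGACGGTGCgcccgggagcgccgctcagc
Prdx1 (chr4:116685446-116685494, minus strand, core at -78 bp): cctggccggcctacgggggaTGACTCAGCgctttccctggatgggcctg
Mafk (chr5:139797458-139797506, minus strand, core at -36 bp): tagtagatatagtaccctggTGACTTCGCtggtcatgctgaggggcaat
Of these 6, the Prdx1 core alone lay under a deposited peak, in EC-K4KO 2, and the other 6 matches, which touch exons, lay under a peak in that library alone for Mafg (core at -169 bp), Hmox2 (core at -9 bp) and Keap1 (core at -35 bp). The share of all genes' ARE matches under a peak was not counted. Around the TSS of all genes, peak coverage reached at most 6.62%, 8.15%, 2.22% and 26.5% in the 4 libraries. The AP-1 letters stood in 3.75% of the antioxidant windows and 6.55% of all windows, the GC box GGGCGG in 73.8% and 45.4%, and the KLF consensus GGGNGNGGC, letters that KLF and Sp factors bind, in 47.5% and 31.2%. The antioxidant promoters were richer in G and C, with a median GC content of 57.6% against 54.9%, and 26 of 36 stood above the median of all genes.

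The share of antioxidant genes with a promoter peak ran from 1 of 36 to 34 of 36. In WT Cre 1, 7 of 36 genes had one (19.4%, 95% exact Clopper-Pearson interval 8.19 to 36), against 25.6% of all protein-coding genes. In WT Cre 2 there were 14 (38.9%, 23.1 to 56.5) against 24.5%. In EC-K4KO 1 there was 1 (2.78%, 0.0703 to 14.5) against 10.7%. In EC-K4KO 2 there were 34 (94.4%, 81.3 to 99.3) against 67.5%. The antioxidant share therefore stood above that of all genes by 14.4 points in WT Cre 2 and 26.9 points in EC-K4KO 2, and below it by margins of -6.16 and -7.88 points in the replicate 1 libraries. Only in EC-K4KO 2 did the interval leave out the share of all genes, and intervals cover counting error over genes only.

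Gene length and base composition moved the background by unequal amounts. Genes of the same length decile as the list had promoter peaks in 24.0%, 22.5%, 9.81% and 65.4% of cases across WT Cre 1 and 2 and EC-K4KO 1 and 2, and the intervals of WT Cre 2 and EC-K4KO 2 lay above this background, that of WT Cre 2 narrowly (lower bound 23.1, against 22.5%). Genes of the same promoter GC decile had them in 30.5%, 31.1%, 11.7% and 80.7%, so that the margin in EC-K4KO 2 was 13.7 points on this scale, with the background just under the lower bound of the interval, while the WT Cre 2 interval held its GC background. The groups overlapped, since the young EC-K4KO libraries held both the lowest and the highest share. The mean was 29.2% ± 13.7 (SD, n = 2) in old WT Cre and 48.6% ± 64.8 (SD, n = 2) in young EC-K4KO, a difference of 19.4 points (two-sided exact permutation of the 4 libraries, p = 1.0, the smallest p this design allows being 0.3333). Over all protein-coding genes the means were 25% and 39.1%, a difference of 14.1 points. For the antioxidant genes, leaving out each library gave differences from -26.4 points, without EC-K4KO 2, to 65.3 points, without EC-K4KO 1.

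**Figure D1:**
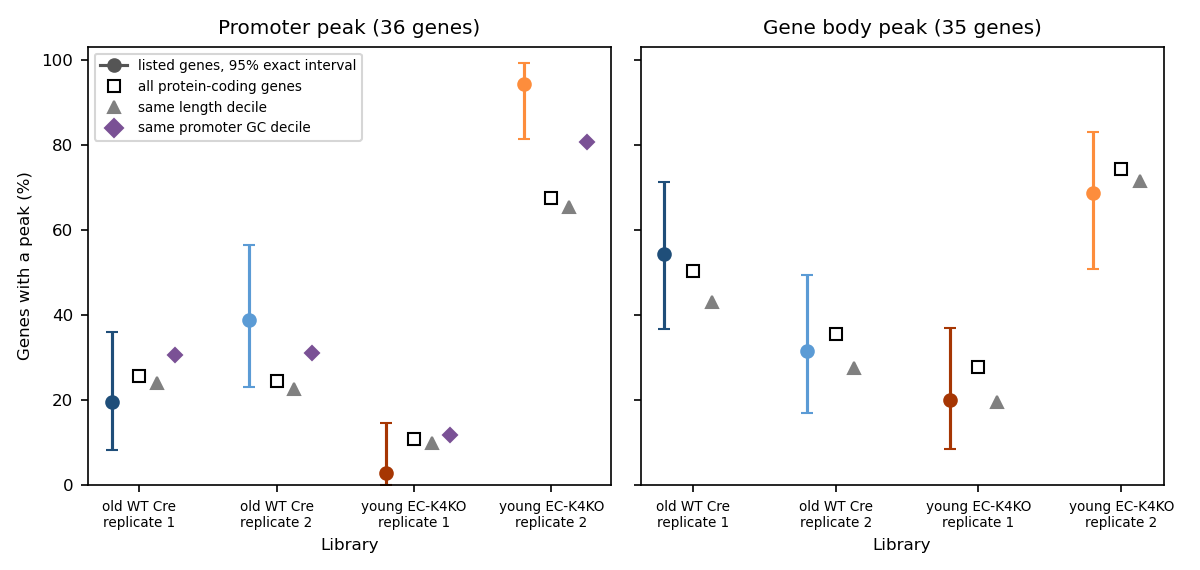
Share of the antioxidant genes with a promoter peak (left, 36 genes) and a gene body peak (right, 35 genes) in each library, in percent, as circles with 95% exact intervals, beside the shares over all protein-coding genes (squares), the same length decile (triangles) and, for promoters, the same GC decile (diamonds). Promoter shares run from 2.78% to 94.4%, both in young EC-K4KO libraries, and only the 94.4% has an interval above the share of all genes.

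When each list was reduced to its 35638 leading peaks by q-value, the length of the shortest list, EC-K4KO 2 kept 16 antioxidant genes with a promoter peak (44.4%, against 27.7% of all genes). WT Cre 2 kept 12 (33.3%, against 22.6%), WT Cre 1 kept 4 (11.1%, against 11.7%) and EC-K4KO 1 its 1 (2.78%, against 10.7%). The share stood above that of all genes in both replicate 2 libraries at equal list length as well, but the difference between the group means was then 1.39 points rather than 19.4.

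No antioxidant gene had a promoter peak in both libraries of a group and in neither of the other. Across all genes, 0.787% were found in the WT Cre pair alone and 3.13% in the EC-K4KO pair alone. That count rested on single libraries: without EC-K4KO 2 there were 4 WT Cre genes (7.79% of all genes), and for EC-K4KO there were 17 without EC-K4KO 1 (33.7% of all genes) and 1, Gclc, without WT Cre 2 (5.1%). Both WT Cre libraries had a promoter peak at Nfe2l2, Mafg, Gpx1 and Cat, 4 genes or 11.1% of the list (10.1% of all genes), and each of these also had one in EC-K4KO 2. The peaks of the WT Cre libraries overlapped at 2 of these 4 genes, Mafg and Gpx1. Both EC-K4KO libraries shared 1 gene, Gclc, or 2.78% of the list (9.15% of all genes), which also had a peak in WT Cre 2. Instead, 9 genes (25%, against 10.5% of all genes) had peaks in the 2 replicate 2 libraries and neither replicate 1 library, namely Mafk, Hmox1, Fth1, Gpx3, Txn1, Txn2, Txnrd1, Txnrd2 and Sod3. A further 17 (47.2%, against 30.5%) were found in EC-K4KO 2 alone, no gene was found in the replicate 1 pair alone (0.27% of all genes) or in all 4 libraries (2.22% of all genes), and Slc7a11 and Sod1 had none in any (5.56% of the list, 25.4% of all genes).

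**Figure D2:**
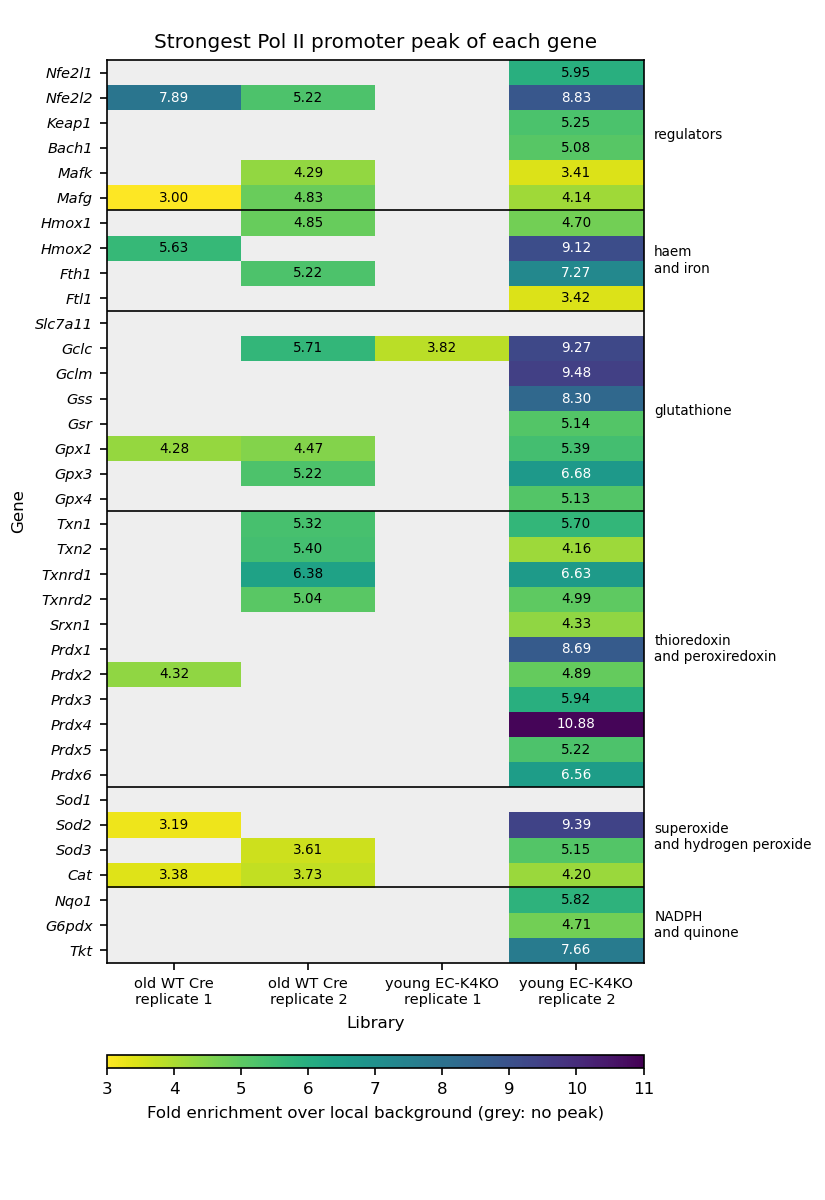
Fold enrichment, the ratio of the signal at the summit to the local background of the same library, of the strongest promoter peak of each of the 36 genes (rows, by role) in the 4 libraries (columns), with grey where no peak was called. The EC-K4KO 2 column is filled for 34 genes and the EC-K4KO 1 column for Gclc alone, at 3.82.

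Among the regulators, Nfe2l2, which encodes NRF2 itself (chromosome 2, 75675513 to 75704641, minus strand), carried the strongest promoter peak of the list in WT Cre 1, with a fold enrichment of 7.89. It was 5.22 in WT Cre 2 and 8.83 in EC-K4KO 2, with no promoter peak in EC-K4KO 1, where the gene had 1 peak in its body. Fold enrichment is on the scale of its own library, so each was also ranked among the promoter peaks of all genes in that library. The Nfe2l2 peaks stood at percentiles 99.5, 57.3 and 89.2. No base was common to the promoter peaks of the 3 libraries, and the summits of the strongest peaks lay at 947 bp, in the intron, at -662 bp, upstream of the gene, and at 590 bp, in the intron again, relative to the TSS.

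Keap1, the inhibitor of NRF2 (chromosome 9, 21229730 to 21239361, minus strand), had a promoter peak in EC-K4KO 2 alone, with a fold enrichment of 5.25 and its summit at -17 bp. None was listed at its promoter in either old WT Cre library or in EC-K4KO 1, although 1 body peak was called in WT Cre 1. A weaker Keap1 peak of 4.26 in EC-K4KO 2 covered the ARE letters at -35 bp, 35 bp from its summit. Mafg, a small MAF partner of NRF2 (chromosome 11, 120625117 to 120633600, minus strand), had fold enrichments of 3.0 and 4.83 in WT Cre 1 and 2 and 4.14 in EC-K4KO 2, and none in EC-K4KO 1. The intronic summits of the 2 WT Cre libraries were 81 bp apart, and a weaker EC-K4KO 2 peak of 3.97 overlapped both, with 160 bp common to the 3 libraries. Mafk, the other small MAF partner, had 4.29 in WT Cre 2 and 3.41 in EC-K4KO 2. The repressor Bach1 and the related factor Nfe2l1, which drives proteasome genes, had promoter peaks in EC-K4KO 2 alone, at 5.08 and 5.95.

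Of the haem and iron genes, Hmox1 (chromosome 8, 75093621 to 75100589, plus strand), the inducible haem oxygenase and a classic NRF2 and BACH1 target, had peaks in the replicate 2 libraries alone. Its fold enrichment was 4.85 in WT Cre 2 and 4.70 in EC-K4KO 2. No promoter peak was called in WT Cre 1 or EC-K4KO 1. The 2 summits lay at 97 and 95 bp downstream of the TSS, the closest placement of any antioxidant gene between libraries. Hmox2, the constitutive haem oxygenase, had a peak of 5.63 in WT Cre 1 and of 9.12 in EC-K4KO 2, but 858 bp apart at their closest. The ferritin heavy chain gene Fth1 followed Hmox1, with 5.22 and 7.27 in the replicate 2 libraries, and the light chain gene Ftl1 had 3.42 in EC-K4KO 2 alone. Fth1 and Ftl1 have annotated pseudogenes with which reads could be confused, as do Gpx4, Txn1 and Prdx6 among the listed genes.

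Gclc, the catalytic subunit of the rate-limiting enzyme of glutathione synthesis (chromosome 9, 77754535 to 77794485, plus strand), was the only listed gene with a promoter peak in EC-K4KO 1. Its fold enrichment was 5.71 in WT Cre 2, 3.82 in EC-K4KO 1 and 9.27 in EC-K4KO 2, with no promoter peak but 4 body peaks in WT Cre 1. The 3 peaks overlapped, with summits at 544, 453 and 508 bp downstream of the TSS in an intron. The bases shared by the 3 peaks are shown because Gclc was the gene common to both EC-K4KO libraries. This run of 178 bp has a GC content of 69.7% and holds 1 GC box, given in capitals, and no ARE core, AP-1 or KLF letters as spelled above.
Gclc (GRCm38 chr9:77754977-77755154, plus strand): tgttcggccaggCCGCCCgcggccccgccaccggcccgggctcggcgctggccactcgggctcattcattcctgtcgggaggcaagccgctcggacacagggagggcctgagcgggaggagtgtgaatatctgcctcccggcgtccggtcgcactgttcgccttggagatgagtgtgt

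The partner of Gclc, the modifier subunit gene Gclm, had a promoter peak in EC-K4KO 2 alone, at 9.48, with its summit at 562 bp and away from the ARE letters printed for it. Glutathione synthetase (Gss) at 8.30 and glutathione reductase (Gsr) at 5.14 were found in the same library alone. Gpx1, a glutathione peroxidase (chromosome 9, 108338903 to 108340343, plus strand), had fold enrichments of 4.28 and 4.47 in WT Cre 1 and 2 and 5.39 in EC-K4KO 2, with none in EC-K4KO 1. Peaks of the 3 libraries had 126 bp in common. At 1441 bp Gpx1 lies wholly within its promoter window and has no gene body. Gpx3, the secreted peroxidase, had 5.22 and 6.68 in the replicate 2 libraries, and Gpx4, which reduces lipid peroxides, 5.13 in EC-K4KO 2 alone. Slc7a11, which imports cystine for glutathione synthesis, had no promoter peak in any library.

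All 11 thioredoxin and peroxiredoxin genes had a promoter peak in EC-K4KO 2, against 1, 4 and 0 in WT Cre 1 and 2 and EC-K4KO 1. Across all genes the shares were 67.5% in EC-K4KO 2 and 25.6%, 24.5% and 10.7% in the other 3 libraries. The 4 genes of the thioredoxin couple itself, Txn1 and Txn2 and their reductases Txnrd1 and Txnrd2, were those with a peak in WT Cre 2. Their fold enrichments were 5.32, 5.40, 6.38 and 5.04 there, and Txnrd1 at 6.38 had the strongest promoter peak of the list in that library. In EC-K4KO 2 the values were 5.70, 4.16, 6.63 and 4.99. Srxn1, which repairs oxidised peroxiredoxins, and Prdx1, Prdx3, Prdx4, Prdx5 and Prdx6 were found in EC-K4KO 2 alone, from 4.33 (Srxn1) to 10.88 (Prdx4, the peroxiredoxin of the endoplasmic reticulum, at percentile 97). The Prdx1 peak, at 8.69, covered the printed ARE letters, 20 bp from its summit. Prdx2 had 4.32 in WT Cre 1 and 4.89 in EC-K4KO 2, 867 bp apart. The promoter windows of Prdx2, Prdx5, Txnrd2 and G6pdx hold the TSS of another protein-coding gene, so their peaks cannot be assigned to 1 gene.

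Of the 4 genes that remove superoxide and hydrogen peroxide, Cat (catalase, chromosome 2, 103453849 to 103485160, minus strand) had fold enrichments of 3.38 and 3.73 in WT Cre 1 and 2 and 4.20 in EC-K4KO 2, with none in EC-K4KO 1. These were weak peaks, at percentiles 23.5, 6.74 and 15.4, and that of WT Cre 1 had its summit at -1496 bp, at the edge of the window. The mitochondrial dismutase gene Sod2 had 3.19 in WT Cre 1 and 9.39 in EC-K4KO 2. The extracellular dismutase gene Sod3, with 3.61 in WT Cre 2 and 5.15 in EC-K4KO 2, had both summits upstream, at -1268 and -910 bp. The cytoplasmic dismutase gene Sod1, which holds an ARE core at -48 bp, had neither a promoter peak nor a body peak in any library. Of the NADPH and quinone genes, Nqo1, a widely used readout of NRF2 activity (chromosome 8, 107388225 to 107403206, minus strand), had a promoter peak of 5.82 in EC-K4KO 2, at -615 bp, and none in the other 3 libraries. G6pdx at 4.71 and Tkt at 7.66, both of the pentose phosphate pathway, were likewise found in EC-K4KO 2 alone.

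Strength was described only for genes with a promoter peak. The median gene stood at percentile 64.6 of the promoter peaks of all genes in WT Cre 1 (7 genes), 53.9 in WT Cre 2 (14 genes), 30.4 in EC-K4KO 1 (1 gene) and 44.6 in EC-K4KO 2 (34 genes). The mean of the library medians differed by -21.8 percentile points, EC-K4KO minus WT Cre, and in pileup per 1000000 fragments, where the medians were 0.335, 0.491, 0.312 and 0.947, by 0.216 in the other direction. No test was made, because no listed gene had a promoter peak in all 4 libraries and each median covers other genes and a list of another length. In the strongest 10% of promoter peaks of their library stood 2 of 7, 0 of 14, 0 of 1 and 5 of 34 genes, and above its median 4 of 7, 8 of 14, 0 of 1 and 16 of 34.

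The summits lay at different distances from the TSS in the 4 libraries. Distance was taken to the nearest TSS of the gene. The listed genes had a mean of 2.22 annotated TSS, against 1.9 over all genes, and the backgrounds below were not matched for this. In EC-K4KO 2, 22 of 34 summits (64.7%) lay within 200 bp of a TSS of the gene, against 40.5% of the promoter summits of all genes, with a median distance of 132 bp against 279 bp. In WT Cre 2 it was 6 of 14 (42.9%, against 39.7%), and all 6 lay in the 200 bp downstream of the TSS, where 28.1% of the summits of all genes were found. The median distance in WT Cre 2 was nevertheless 367 bp, against 269 bp. In WT Cre 1 it was 2 of 7 (28.6%, against 30.7%), with a median distance of 663 bp against 368 bp. The single summit of EC-K4KO 1 was that of Gclc. Where a gene had peaks in both WT Cre 2 and EC-K4KO 2, the peaks overlapped in 10 of 14 genes (71.4%, against 74.6% of all such genes), and the closest summits were within 100 bp at Hmox1 (2 bp), Txn2 (32 bp), Gclc (36 bp) and Txnrd2 (70 bp), 4 of 14 genes (28.6%, against 35.4% of all such genes). Between the 2 old WT Cre libraries, peaks overlapped in 2 of 4 genes (against 60.4% of all such genes).

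**Figure D3:**
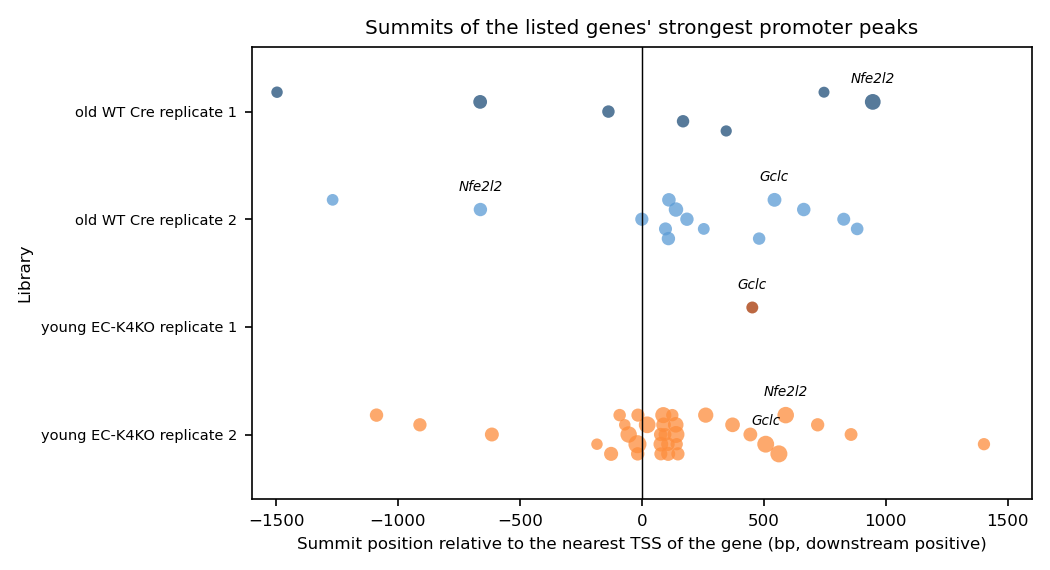
Position in bp, relative to the nearest TSS of the gene, of the summit of each antioxidant gene's strongest promoter peak, 1 row of points per library, with point size growing with fold enrichment and a small vertical offset to separate points. In EC-K4KO 2, 22 of 34 summits lie within 200 bp of the TSS, whereas the 7 summits of WT Cre 1 spread across the window.

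Counted over all 80 TSS rather than over genes, peak coverage showed the same shape. In WT Cre 2 it was highest at 150 bp downstream, where 18.8% of the antioxidant TSS lay under a peak against 8.15% for all genes at the same offset. In EC-K4KO 2 the maximum was 46.2% at 50 bp, against a maximum of 26.5% at 100 bp for all genes. In WT Cre 1 the antioxidant TSS showed no such maximum, with at most 3.75% under a peak, where all genes reached 6.62% at 150 bp. TSS of 1 gene can lie close together and share a peak.

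**Figure D4:**
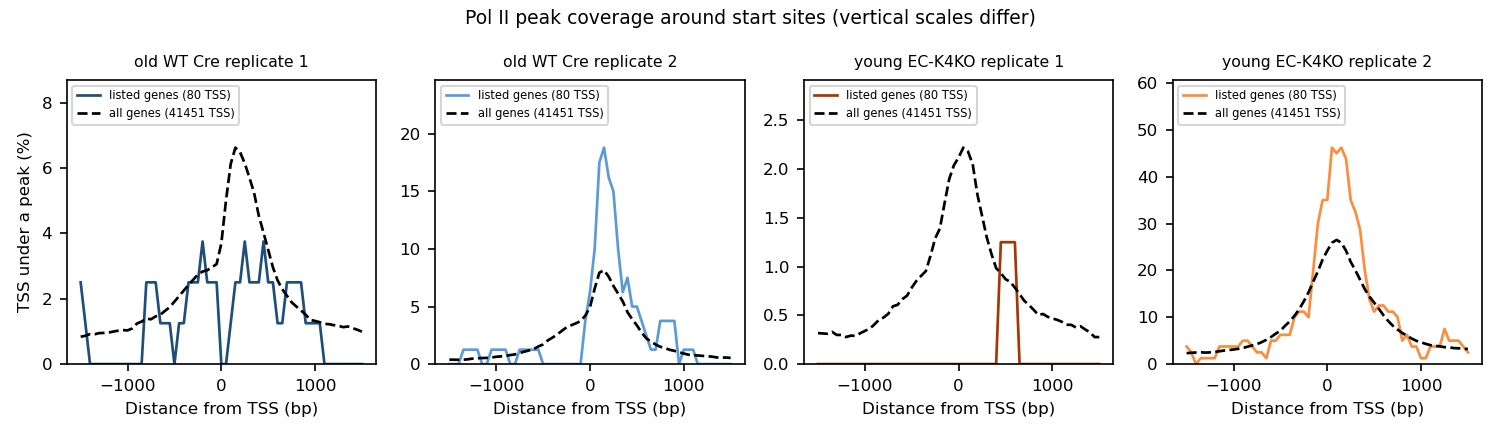
Percent of TSS that lie under a peak, at steps of 50 bp from 1500 bp upstream to 1500 bp downstream, for the 80 TSS of the antioxidant genes (solid lines) and the 41451 of all protein-coding genes (dashed lines) in the 4 libraries. The antioxidant curve rises above the dashed one near the TSS in both replicate 2 libraries, to 18.8% and 46.2%, whereas in the replicate 1 libraries it stays at or under 3.75% and 1.25%, with a few offsets above the dashed curve, and the vertical scales differ.

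The letters under the peaks were counted too. The ARE core stood in 4 of 8 antioxidant promoter peaks of WT Cre 1 (against 12.7% of all promoter peaks of that library), those of Mafg and Sod2 and 2 at Nfe2l2. The median width of these 8 peaks was 318 bp, against 242 bp. In WT Cre 2 no match stood under any of 15 antioxidant peaks, against 13.1% of all, and the single Gclc peak of EC-K4KO 1 held none. In EC-K4KO 2 it was 9 of 51 (17.6%, against 14.5%). The AP-1 letters stood in 1 of 8 (12.5%), 1 of 15 (6.67%), 0 of 1 and 6 of 51 (11.8%) of the antioxidant peaks, against 3.55%, 2.75%, 3.56% and 3.84% of all promoter peaks. The GC box stood in 5 of 8, 4 of 15, 1 of 1 and 27 of 51, against 34.7%, 46.2%, 34.9% and 44.0%, and the KLF letters in 2 of 8, 3 of 15, 0 of 1 and 16 of 51, against 17.1%, 22.7%, 19.3% and 26.7%. In WT Cre 2 both stood below the share of all promoter peaks, on 15 peaks and with no test. The antioxidant peaks were narrower in WT Cre 2 (median 198 bp, against 231 bp) and wider in EC-K4KO 2 (282 bp, against 247 bp). The counts of letters were not matched for width. A match is a run of letters and does not show that a factor was bound.

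In gene bodies, the share of antioxidant genes with a peak was above that of all genes in WT Cre 1 and below it in the other libraries, by less than its interval in each. Of the 35 genes with a body, 19, 11, 7 and 24 had a body peak in the 4 libraries, or 54.3%, 31.4%, 20% and 68.6%, against 50.3%, 35.4%, 27.8% and 74.3% of all genes and 43.0%, 27.4%, 19.6% and 71.6% of genes of the same length decile. All 4 intervals hold both backgrounds, that of all genes and that of the length decile. The deciles are of gene length, not of body length. Prdx5, Ftl1 and Fth1 kept only 104, 207 and 875 bp of body and had no body peak in any library. The mean was 42.9% ± 16.2 (SD, n = 2) in old WT Cre and 44.3% ± 34.3 (SD, n = 2) in young EC-K4KO, a difference of 1.43 points (two-sided exact permutation, p = 1.0), where all genes differed by 8.25 points (42.8% and 51.1%). The difference for the antioxidant genes lay between -22.9 points, without EC-K4KO 2, and 25.7 points, without EC-K4KO 1, and was -10 points without WT Cre 2 and 12.9 without WT Cre 1. Per 100 kb of gene body there were 3.37, 1.42, 1.15 and 9.66 peaks, against 3.38, 1.56, 1.25 and 9.89 over all genes. A peak in the body was found in all 4 libraries for Slc7a11, Txnrd2, Cat and Tkt, 4 of 35 genes (11.4%, against 16.9% of all genes and 8.5% of genes of the same length decile).

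Slc7a11, at 551089 bp the longest gene of the list, had 5, 3, 6 and 27 body peaks. Without it the density was 5.7, 2.24, 1.21 and 14.2 peaks per 100 kb, against 3.38, 1.56, 1.25 and 9.89 over all genes, above it in all libraries but EC-K4KO 1. The comparison is uneven, because the longest gene was dropped from the list while the density over all genes kept its long genes. No length-matched density was computed. This comparison was made after the values were seen and has no test. In the body of Cat, WT Cre 1, EC-K4KO 1 and EC-K4KO 2 had intronic summits at 13824, 13672 and 13714 bp from the TSS, with fold enrichments of 4.67, 4.36 and 5.66. In Sod3, the coding exon carried a peak in WT Cre 1 and 2 and EC-K4KO 2, with summits at 4651, 4375 and 4515 bp and fold enrichments of 3.04, 3.61 and 5.6. Those of Cat and Sod3 were chosen for printing after their values were seen. Of the body peaks, 29, 13, 11 and 82 had their summit in an intron and 9, 3, 2 and 27 in an exon.

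Peaks from 1500 bp to 15000 bp upstream of the outermost TSS were counted because the inducible enhancers of Hmox1 are known to lie upstream of its promoter. Of the 36 antioxidant genes, 14, 12, 7 and 32 had an upstream peak in the 4 libraries, or 38.9%, 33.3%, 19.4% and 88.9%, against 41.1%, 23.5%, 17.6% and 78.1% of all genes. The upstream class overlaps the others. Cat in WT Cre 1 entered it through its promoter peak at -1496 bp, and Gpx4 in WT Cre 2 through a peak also counted in its body. At Hmox1, WT Cre 1 had 1 upstream peak, at -6663 bp with a fold enrichment of 3.94, and WT Cre 2 had none. EC-K4KO 1 had 2, at -11944 and -1806 bp with fold enrichments of 3.62 and 3.72. EC-K4KO 2 had 4, of which the strongest, at -9587 bp, had 5.11. No upstream Hmox1 summit of 1 library fell within 100 bp of that of another.

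A second list of 40 genes around the pathway, which includes Cul3, the ubiquitin ligase scaffold that works with KEAP1, the small MAF gene Maff, glutathione transferases and glutaredoxins, was counted beside the 36. Promoter peaks were found in 13, 15, 5 and 27 of 40, or 32.5%, 37.5%, 12.5% and 67.5%. All protein-coding genes had 25.6%, 24.5%, 10.7% and 67.5%, so the 40 genes stood above them in WT Cre 1 and 2 and EC-K4KO 1 and level with them in EC-K4KO 2, where the 36 listed genes had 94.4%. Each of the 4 intervals of the 40 genes held the share of all genes. Body peaks were found in 25, 14, 9 and 35 of the 40 genes, or 62.5%, 35%, 22.5% and 87.5%, against 50.3%, 35.4%, 27.8% and 74.3% of all genes.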

How the data were processed

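Pol II ChIP-seq of sorted brain ECs (MNase-digested chromatin, per the study's methods) gave 4 libraries, grouped by the labels. Adapter-trimmed reads were placed on mm10 by the authors with Bowtie2, duplicates were dropped, and peaks were called library by library with MACS2 (version 2.2.7.1 and a q-value limit of 0.01 in the deposited headers), without a control library. For every peak the deposited tables list a pileup, which is a coverage signal in fragments, and a fold enrichment, which is a ratio to local background. They also hold the deposited −log10 p-value and −log10 q-value. None was normalized between libraries, called peaks began at a pileup of 7 to 13 fragments, and a region without a peak may only lack signal at that depth.

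Peaks were joined to GRCm38 genes (GENCODE M21 basic, protein-coding transcripts) with pandas 2.3.3, numpy 2.4.6, pysam 0.24.0 and scipy 1.17.1 (Python 3.11.15). An overlap of 1 base sufficed, and sequences were read from the RefSeq copy of GRCm38. Promoter peaks overlap the 1500 bp on either side of any TSS and body peaks the rest of the gene. Backgrounds are all genes and the 10 length or promoter GC deciles, weighted as the list. Promoter GC was taken over 500 bp on either side of the TSS. Intervals are exact Clopper-Pearson at 95%, and groups were compared by exact permutation of libraries. The window step, tested on simulated data, recovered 3000 of 3000 peaks, all planted inside promoter windows. For 400 genes, its promoter and body calls on these peaks equalled a direct count. All genes of the list are named by role, with values in every library for those with promoter peaks in 3 libraries and for Nfe2l2, Keap1, Hmox1 and Nqo1. The genes and lists were chosen with earlier results of these data known. Alternatives were stricter peak limits, equal list lengths, other windows and TSS choices, summits in place of peaks, and leaving out each library. Other data of the study were not used here.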

Additional observations from a re-analysis of the deposited data

How the results depend on the processing

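With 2 libraries per group the exact permutation test could not give a p below 0.3333, and peaks near the calling limit depend on depth and on signal over background, which differed between libraries. Of 164 values recomputed under alternatives, 140 kept their direction or stayed within the interval of the reported value, 18 moved and 6 reversed, and the cause was not tested. The promoter share of EC-K4KO 1 was 0.0% at a q-value of at most 1e-05 (3.36% of all genes) or a fold enrichment of at least 4 (6.56%). That of EC-K4KO 2 was 80.6% at the same q-value (57.2% of all genes) and also within 500 bp of the TSS (56.3%), and 44.4% at equal list length (27.7%), and its margin over genes of the same GC decile was 13.7 points. Leaving out each library in turn gave group differences from -26.4 to 65.3 points for promoters, from -22.9 to 25.7 points for gene bodies and from -28.9 to -14.7 percentile points for strength, and strength in pileup per 1000000 fragments was 0.216. The promoter difference at equal list length was 1.39 points. The gene body difference was -2.86 points at the strict q-value and -5.71 at equal list length, where the body share of WT Cre 1 was 31.4% and that of EC-K4KO 2 28.6%. At a fold enrichment of at least 4 the body share of WT Cre 1 was 28.6%. Genes found in both old WT Cre libraries alone numbered 1 (Gpx1, where all genes gave 1.8%) at equal list length and 0 to 4 on leaving out each library. Those found in both young EC-K4KO libraries alone numbered 1 (Tkt, where all genes gave 3.82%) with a window of 3000 bp and 0 to 17 on leaving out each library. Without the 9 genes that share a promoter or have a named pseudogene, an alternative chosen after seeing the data, the promoter shares of the other 27 were 22.2%, 40.7%, 3.7% and 92.6%, against 25.6%, 24.5%, 10.7% and 67.5% of all genes. From 500 bp before to 500 bp after the TSS, the ARE core stood in 51.2% of windows (33.7% of all), the AP-1 letters in 21.2% (18.9%), the GC box in 85.0% (61.2%) and the KLF letters in 72.5% (49.3%).

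Replicate numbers are shared by the groups in the labels, which do not say whether they pair the libraries. The correlation of replicate differences between groups was 0.0509 over 21864 genes. A correlation leaves out any shift common to all genes, so this value cannot decide whether replicates were paired or shared a batch. With the replicate number as a block, the promoter difference was 19.4 points (exact permutation, p = 1.0), the gene body difference 1.43 points (p = 1.0) and the strength difference, which was not tested, -21.8 percentile points.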
